A study of Bos taurus with 38 samples.

Results

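LIPE and PNPLA2 are the 2 genes described here, out of 27607 genes in a count table of Longissimus dorsi (LD) muscle from 38 newborn beef calves. They were taken by their Ensembl identifiers, ENSBTAG00000038321 for LIPE and ENSBTAG00000005144 for PNPLA2, and both were among the 12964 genes that passed a filter on low counts. The study itself listed both genes as changed in these same calves, so the values below are not independent evidence of a direction. The calves were born to Angus and Angus-cross cows that received no Se-yeast (CTR, 10 calves) or Se-yeast boluses in 1 trimester of gestation, the first (TR1, 9 calves), the second (TR2, 10 calves) or the third (TR3, 9 calves). Each supplemented cow was given 3 boluses weekly over 13 weeks, for a total of 105 mg Se per week. By the sample labels, CTR held 4 female and 6 male calves, TR1 2 and 7, TR2 3 and 7, and TR3 5 and 4. The dams were aged 6 to 9 years in CTR, 5 to 9 in TR1 and TR2, and 5 to 8 in TR3. Cows of every group, CTR included, also had access to a mineral supplement with Na selenite, so CTR was a group without Se-yeast and not a group without Se. Biopsies were taken with a needle within days of birth, after a local anesthetic containing epinephrine that all calves received, and the time since the last feeding was not given in the sources used here. The samples were whole muscle pieces, in which a smaller number of cells of a type and less RNA in each cell cannot be told apart.

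Triglyceride stored in the lipid droplets of muscle fibres and adipocytes is broken down by lipases that act one after the other. PNPLA2 encodes adipose triglyceride lipase (ATGL), which releases the first fatty acid from triglyceride. LIPE encodes hormone-sensitive lipase (HSL), which mainly cleaves the resulting diglyceride, and monoglyceride lipase (MGLL) finishes the sequence. Beta-adrenergic signalling through cAMP and protein kinase A activates HSL and frees the co-activator of ATGL from perilipins on the droplet, insulin opposes both, and fasting and glucocorticoids raise transcription of PNPLA2 through FoxO factors. RNA levels do not measure lipase activity. In the RefSeq gene table, neither gene overlaps another gene: LIPE lies between CEACAM1 and CNFN on chromosome 18, and PNPLA2 between CRACR2B and RPLP2 on chromosome 29.

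Total counts per calf lay between 12921223 and 17471666. Behind the values stood 75 to 920 reads per calf for LIPE and 729 to 12898 for PNPLA2. Levels are given as CPM, the read count relative to the library's total, scaled with TMM factors that ranged from 0.887 to 1.35, the highest in TR1 calf A2052 (calves are named as in the sample labels). Differences between groups were tested with edgeR's quasi-likelihood F-test on all 38 calves with dam age and calf sex as covariates, and p-values were adjusted by Benjamini-Hochberg over the 12964 genes. No gene reached an adjusted p of 0.05 in any comparison of treatment groups (0% of genes), whereas 4 genes did in the comparison of females with males (0.0309%). DESeq2, run as an alternative, called 1 gene in TR2 vs. CTR, neither of the lipases, and 0 in TR1 vs. CTR and TR3 vs. CTR. Unadjusted p-values are given for the lipases beside the share of all genes with an unadjusted p under 0.05.

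LIPE was higher in the median calf of every Se-yeast group than in the median CTR calf. In CTR, LIPE had 5.84 CPM in the lowest calf, 7.82 in the median and 12.9 in the highest. TR1 calves had from 8.19 CPM (A2057) to 48.5 CPM (A2052), with a median of 14.2. TR2 calves had from 7.41 CPM (A2054) to 35.6 CPM (A2100), with a median of 13.2. The groups overlapped, but every TR1 calf and all except 1 of the TR2 calves exceeded the median CTR level, and 5 calves in each of these groups exceeded the highest CTR calf. In TR3, LIPE had 5.75 CPM in the lowest calf (A2020), 12.7 in the median and 16.8 in the highest (A2102). Of the 9 TR3 calves, 8 lay above the CTR median, 4 above the highest CTR calf and 1 below the lowest.

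**Figure D1:**
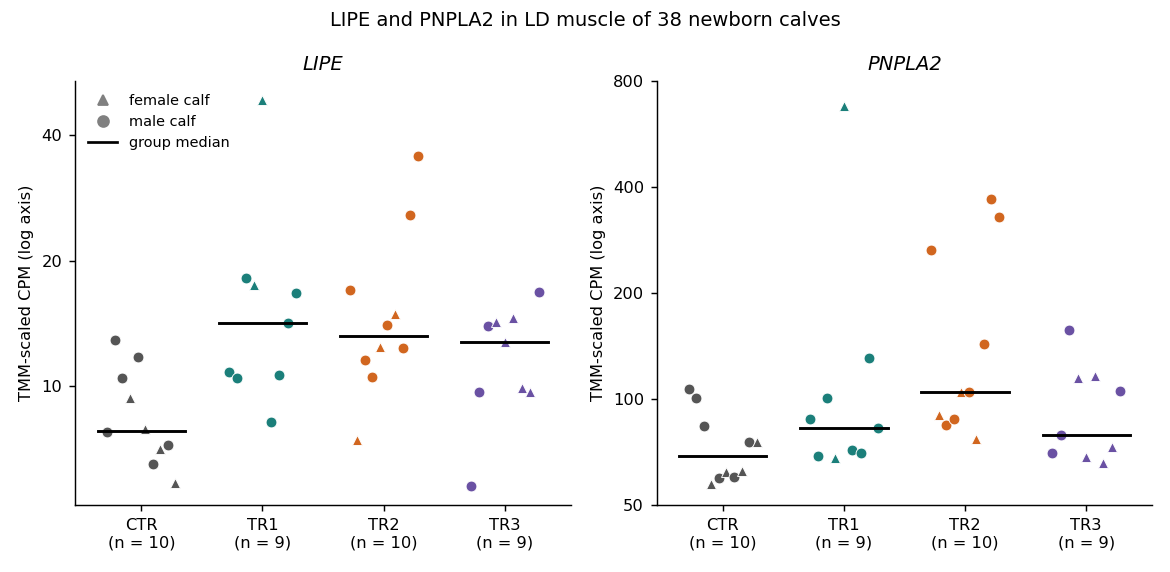
TMM-scaled CPM of LIPE (left) and PNPLA2 (right) on log axes, with 1 symbol per calf (triangles, females; circles, males) and a black line at each group's median. For LIPE, most TR1, TR2 and TR3 calves lie above the CTR median of 7.82 CPM; for PNPLA2, most calves of all groups lie between 57.4 and 157 CPM, and 1 TR1 calf (679 CPM) and 3 TR2 calves (265 to 369 CPM) stand far above.

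As means, LIPE had 8.67 ± 2.34 CPM (SD, n = 10) in CTR calves. The Se-yeast groups had 17.2 ± 12.2 CPM (TR1, n = 9), 16.1 ± 8.41 CPM (TR2, n = 10) and 11.9 ± 3.41 CPM (TR3, n = 9). Relative to CTR, the log2 fold change was 0.94 (SE 0.28) for TR1, 0.92 (SE 0.27) for TR2 and 0.39 (SE 0.29) for TR3. With edgeR, the unadjusted p was 0.00201 for TR1 and 0.00155 for TR2, and none of the 3 comparisons passed the adjustment, with adjusted p-values of 1.00, 0.497 and 1.00 in the order TR1, TR2, TR3. An unadjusted p under 0.05 was reached by 2.55% of all genes in TR1 vs. CTR, by 8.34% in TR2 vs. CTR and by 1.35% in TR3 vs. CTR, and LIPE ranked 11 by p in TR1 and 29 in TR2. For TR3, the unadjusted edgeR p was 0.193. On medians of log2 CPM, which a single high calf moves little, LIPE exceeded CTR by 0.85 (TR1), 0.74 (TR2) and 0.70 (TR3), with two-sided exact permutation p-values of 0.00152, 0.00503 and 0.0228 that were not adjusted over genes. Unlike the edgeR fit, these tests held no terms for dam age or sex. For TR3, the exact permutation p on means was 0.0376, and edgeR without these terms gave an unadjusted p of 0.0967.

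PNPLA2 differed from LIPE in where its spread lay: most Se-yeast calves were within or just above the CTR range, and a few were far above it. CTR calves had from 57.4 CPM (A2041) to 107 CPM (A2034), with a median of 69.1. TR1 calves had from 68.2 CPM (A2047) to 679 CPM (A2052), with a median of 83.1. The next highest TR1 calf, A2067, had 131 CPM, so that A2052 stood alone in its group. TR2 calves had from 77.4 CPM (A2084) to 369 CPM (A2099), with a median of 105. In TR2, A2100 (328 CPM), A2023 (265 CPM) and A2090 (144 CPM) also exceeded the highest CTR calf, and none of the 10 TR2 calves was below the median CTR level. TR3 calves had from 65.8 CPM (A2085) to 157 CPM (A2033), with a median of 79.0. The groups overlapped, with 2 TR1, 4 TR2 and 3 TR3 calves above the highest CTR calf.

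As means, PNPLA2 had 74.6 ± 17.8 CPM (SD, n = 10) in CTR calves. The Se-yeast groups had 151 ± 199 CPM (TR1, n = 9), 166 ± 111 CPM (TR2, n = 10) and 94.6 ± 31.0 CPM (TR3, n = 9). Relative to CTR, the log2 fold change was 0.83 (SE 0.39) for TR1, 1.19 (SE 0.36) for TR2 and 0.18 (SE 0.39) for TR3. With edgeR, the unadjusted p-values were 0.0386, 0.00214 and 0.644, and the adjusted p-values were 1.00, 0.497 and 1.00. On medians, PNPLA2 differed from CTR by 0.61 log2 units in TR2 (exact permutation p = 0.00363), by 0.27 in TR1 (exact permutation p = 0.152) and by 0.20 in TR3 (exact permutation p = 0.278), again without covariates or adjustment over genes. Within each group, the SD of log2 CPM of PNPLA2 was 0.32 (CTR), 1.05 (TR1), 0.87 (TR2) and 0.44 (TR3), against 0.37, 0.75, 0.64 and 0.46 for LIPE.

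The TR1 values depended on calf A2052. Without it, the TR1 log2 fold change of PNPLA2 was 0.07 (unadjusted edgeR p = 0.766) and that of LIPE 0.60 (unadjusted edgeR p = 0.0144). In the same fit, TR3 vs. CTR moved to 0.54 for LIPE (unadjusted edgeR p = 0.0297) and 0.47 for PNPLA2 (unadjusted edgeR p = 0.0637). A2052 is a female with a dam aged 5 years, and sex and dam age are terms that all groups share in the fit. For PNPLA2, the female vs. male value moved from 0.15 to -0.53 and the value per year of dam age from -0.13 to 0.039. The part of each term in the TR3 values was not tested. No single calf carried TR2: with each calf left out in turn, its log2 fold change ranged from 0.69 to 1.06 for LIPE and from 0.95 to 1.35 for PNPLA2, lowest without A2100 and A2099. Leaving out single calves cannot show dependence on several, and no fit without A2099, A2100 and A2023 together was made. For PNPLA2 in TR2, the difference of medians was 0.61 log2 units, against 1.19 from the fit. In males alone, LIPE had log2 fold changes of 0.50, 0.98 and 0.58 in TR1, TR2 and TR3, and PNPLA2 of 0.15, 1.30 and 0.48 (edgeR, with A2052, a female, outside the fit). TR1 held 2 females, so that the sexes were not compared within it.

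**Figure D2:**
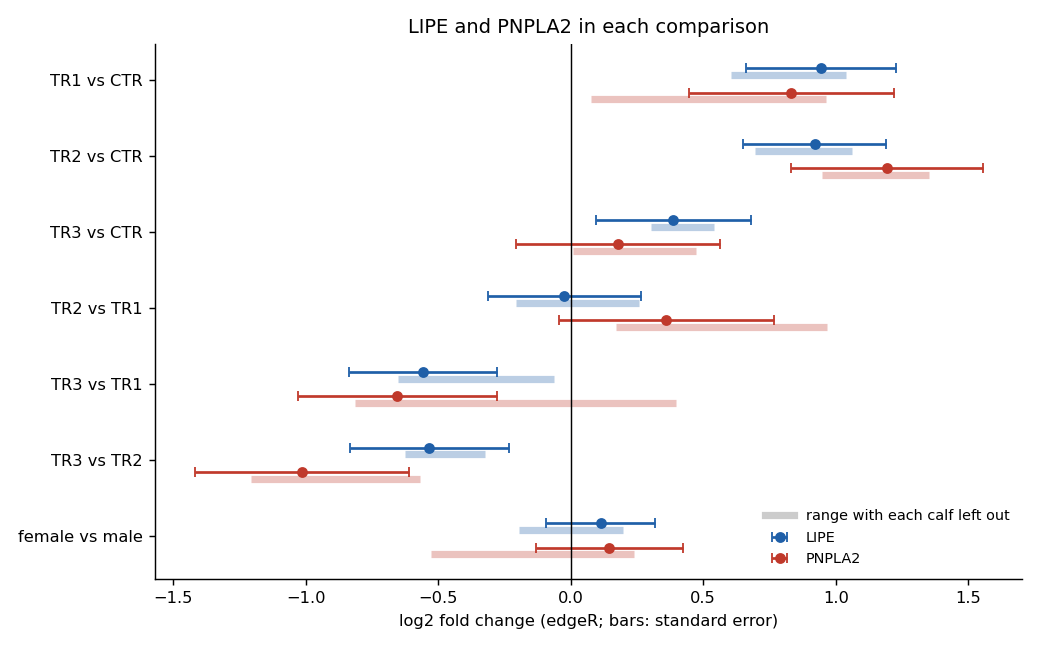
Log2 fold changes of LIPE (blue) and PNPLA2 (red) from edgeR in 7 comparisons, with standard errors as bars and, as pale bands, the range of the value with each calf left out in turn. In TR1 vs. CTR the PNPLA2 band reaches down to 0.07 and in TR3 vs. TR1 it crosses 0, while in TR2 vs. CTR both bands stay at 0.69 or higher.

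Between the trimesters, neither lipase passed the adjustment. By log2 fold change vs. CTR, LIPE was ordered TR1, TR2, TR3, and PNPLA2 was ordered TR2, TR1, TR3. In TR3 vs. TR2, the log2 fold change was -0.53 (SE 0.30) for LIPE and -1.01 (SE 0.40) for PNPLA2, with unadjusted edgeR p-values of 0.0837 and 0.0163, where 9.46% of all genes had a p under 0.05. In TR3 vs. TR1 it was -0.56 (SE 0.28) for LIPE and -0.65 (SE 0.37) for PNPLA2 (unadjusted edgeR p = 0.0545 and 0.0893; 5.85% of all genes under 0.05). TR2 vs. TR1 gave -0.02 (SE 0.29) and 0.36 (SE 0.40), with 6.15% of all genes under 0.05 and unadjusted edgeR p-values of 0.933 and 0.378. The standard errors leave room for differences of either sign there. With all calves, neighbours in each order did not differ at an unadjusted p of 0.05, and of the Se-yeast groups only the ends of the PNPLA2 order, TR2 and TR3, did. This order depended on A2052: without it, PNPLA2 was ordered TR2, TR3, TR1 and LIPE was ordered TR2, TR1, TR3. For PNPLA2, TR2 vs. TR1 then gave 0.97 (unadjusted edgeR p = 0.000487), TR3 vs. TR2 -0.57 (unadjusted edgeR p = 0.0365) and TR3 vs. TR1 0.40 (unadjusted edgeR p = 0.142), and for LIPE these values were 0.26, -0.32 and -0.06 with unadjusted edgeR p-values of 0.277, 0.200 and 0.798.

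Over the Se-yeast groups together, the mean log2 fold change vs. CTR was 0.75 (SE 0.23) for LIPE and 0.74 (SE 0.31) for PNPLA2. The unadjusted edgeR p-values were 0.00278 and 0.0245, in a comparison where 1.94% of all genes had a p under 0.05, and the adjusted p was 1.00 for both. A test of any difference among the groups gave unadjusted edgeR p-values of 0.00332 for LIPE and 0.00699 for PNPLA2, adjusted p = 0.817 for both, with 6.09% of all genes under 0.05. The female vs. male log2 fold change was 0.11 (SE 0.21) for LIPE and 0.15 (SE 0.28) for PNPLA2, where 6.61% of all genes had a p under 0.05, and without A2052 both values turned negative, at -0.19 and -0.53 (unadjusted edgeR p = 0.283 and 0.0102). Per year of dam age it was -0.04 (SE 0.08) and -0.13 (SE 0.11), where 3.36% of all genes had a p under 0.05.

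The balance between the lipases within a calf was given as the log2 ratio of LIPE to PNPLA2 counts, which is not a ratio of molecules because gene length was not corrected. It averaged -3.11 ± 0.44 (SD, n = 10) for CTR, -2.82 ± 0.55 (n = 9) for TR1, -3.24 ± 0.49 (n = 10) for TR2 and -2.98 ± 0.38 (n = 9) for TR3. Differences from CTR were 0.29, -0.13 and 0.13 for TR1, TR2 and TR3. Two-sided exact permutation tests without covariates gave p-values of 0.214, 0.530 and 0.509, each 0.530 after Benjamini-Hochberg adjustment over the 3 comparisons. Of the 4 calves with the highest PNPLA2, which is the denominator of the ratio, A2052 had -3.81, A2099 -3.84, A2100 -3.20 and A2023 -3.96. A2052 and A2023 had the lowest ratios of TR1 and TR2.

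LIPE and PNPLA2 varied together from calf to calf. Over the 38 calves, Pearson's r between their log2 CPM was 0.80 (permutation p = 1e-05, the smallest that 100000 permutations can give) and Spearman's rho was 0.62 (permutation p = 7e-05). Without A2052 and A2099, the calves farthest from the median of PNPLA2, r was 0.66 and rho 0.55 (permutation p = 4e-05 and 0.00069). In residuals after group, sex and dam age, r was 0.77 and rho 0.62. Within groups, r was 0.22 (CTR), 0.87 (TR1), 0.83 (TR2) and 0.66 (TR3), with permutation p-values of 0.542, 0.0210, 0.00242 and 0.0495 (exact in TR1 and TR3). In the same order, rho was 0.03, 0.50, 0.64 and 0.60, with permutation p-values of 0.947, 0.178, 0.0539 and 0.0968 (exact in TR1 and TR3). CTR was the group in which PNPLA2 had its narrowest range, and whether its r differed from that of the other groups was not tested.

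**Figure D3:**
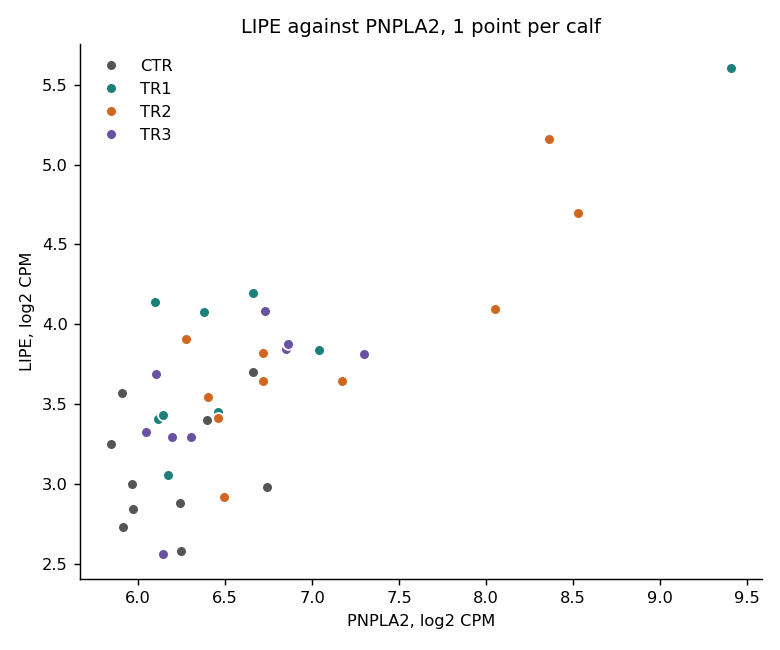
Log2 CPM of LIPE against that of PNPLA2, with 1 point per calf coloured by group. The 38 points rise together (r = 0.80), with 1 TR1 and 2 TR2 calves at the upper right and the 10 CTR calves at the lower left (r = 0.22 within them).

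Patterns over the 38 calves were compared by Pearson's r among 2579 genes with a known symbol and a mean of at least 1 CPM. By this measure, the gene most like LIPE was PNPLA2 itself. It was followed by OSBPL11, an oxysterol-binding protein family member (r = 0.78), DNAJC1 (r = 0.77), the class II histone deacetylase HDAC5 (r = 0.76) and ZFAND2B (r = 0.75). For PNPLA2 the likeness was closer, with 27 genes above an r of 0.80, and LIPE ranked 31. Its 5 most similar genes were OSER1 (r = 0.91), the chromatin remodeller CHD7 (r = 0.88), CALCOCO1 (r = 0.88), glutamine synthetase GLUL (r = 0.87) and the transporter ABCA5 (r = 0.87). At the opposite end, LIPE varied inversely with the matricellular gene POSTN (r = -0.75), KIF21A (r = -0.73) and INTS2 (r = -0.73). PNPLA2 varied inversely with LSMEM1 (r = -0.89), the muscle lysine methyltransferase SMYD1 (r = -0.88) and SAMD11 (r = -0.87). These r share the same 38 libraries and the same few extreme calves: without A2052 and A2099, r was 0.83 for OSER1 and -0.85 for LSMEM1 with PNPLA2, and 0.65 for OSBPL11 and -0.63 for POSTN with LIPE. The first rank of PNPLA2 for LIPE depended on these calves. Without them, r with LIPE was 0.663 for PNPLA2, 0.669 for HDAC5, 0.671 for ZFAND2B and 0.704 for PLIN5. Spearman's rho with LIPE over all calves was 0.62 for PNPLA2, 0.73 for HDAC5, 0.66 for ZFAND2B and 0.63 for OSBPL11. The symbols came from the study's own gene tables, so that genes it did not list were not compared here.

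Other genes of lipolysis were taken from lists made from general knowledge and matched to identifiers through the same tables, which name mostly genes that the study called in these calves. No list gene reached an adjusted p of 0.05 in a comparison with CTR (edgeR), and all values in the next paragraphs are log2 fold changes from that fit. For TR1, TR2 and TR3, 50.4%, 51.3% and 47.2% of all genes had a positive log2 fold change, with a median over all genes of 0.0016, 0.0075 and -0.0093. Those shares and medians cover all genes tested, named or not, and are therefore not a matched background for the lists.

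Of the lipase list, MGLL and ABHD6, both monoglyceride lipases, could be matched beside LIPE and PNPLA2. MGLL had 100 to 144 CPM in CTR, 123 to 241 in TR1, 116 to 187 in TR2 and 87.4 to 168 in TR3. Its log2 fold changes were 0.26 (SE 0.13), 0.25 (SE 0.13) and 0.08 (SE 0.14) in TR1, TR2 and TR3, smaller than those of the upstream lipases. ABHD6 was low, at 0.708 to 4.34 CPM, with log2 fold changes of 0.05, -0.29 and -0.57. Of the droplet coat, PLIN2, the ubiquitous perilipin that covers stored triglyceride, had a log2 fold change of 1.10 in TR2 (SE 0.37; unadjusted edgeR p = 0.00532), against 0.11 in TR1 and -0.36 in TR3. PLIN2 reached 77.8 CPM in A2100, against a CTR range of 6.06 to 22.1. PLIN5, the perilipin of oxidative muscle that binds ATGL, had 0.56, 0.55 and 0.08. PLIN1, the adipocyte perilipin, had 0.53, 0.05 and -0.15 at a mean of 3.14 CPM.

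Upstream of HSL, the matched genes of the beta-adrenergic and cAMP arm had positive values in 3 of 7 (TR1, median -0.06), 5 of 7 (TR2, 0.17) and 4 of 7 (TR3, 0.05), and without A2052 the TR1 median was 0.10 with 4 of 7 positive. Adenylyl cyclase ADCY6 had 0.38, 0.20 and 0.21. The symbol GNAS, the stimulatory G protein subunit, belongs to 2 identifiers, and they went apart in TR2 (0.89 for ENSBTAG00000052413 and 0.02 for ENSBTAG00000047223), so that its level is uncertain. In the insulin and Gi arm, which restrains lipolysis, all 5 genes were positive for TR1 (median 0.53), 3 of 5 for TR2 (0.16) and 3 of 5 for TR3 (0.05), and without A2052 the TR1 median was 0.19 with 4 of 5 positive. IRS2, an insulin receptor substrate that is also a FoxO target, had 0.94, 0.94 and -0.65, with 40.4 CPM in A2052 and at most 5.02 CPM in CTR. GNAI1, an inhibitory G protein subunit, had 0.53, -0.47 and 0.46, and the prostaglandin synthase PTGS1 had 0.11, -0.56 and 0.05.

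Among 9 regulators of lipase genes, 7 were positive for TR1 (median 0.35), 7 for TR2 (0.47) and 2 for TR3 (-0.23). CEBPD, which glucocorticoids induce, had 1.19 (SE 0.61), 1.45 (SE 0.55) and -0.92 (SE 0.60), CEBPB 0.31, 0.47 and -0.06, and the lipogenic factor SREBF1 0.54, 0.25 and 0.24. CEBPD stood at 688 CPM in A2052, against 9.69 to 47.1 CPM in CTR, and without that calf the regulators' median in TR1 was -0.07. The median CPM of CEBPD was 20.4 in CTR, 23.2 in TR1 and 23.6 in TR2. In TR2, A2099 (151 CPM), A2100 (101), A2023 (99.5) and A2090 (74.3) exceeded the highest CTR calf. Among 10 genes of fatty acid use, 10 were positive for TR1 (median 0.29), 9 for TR2 (0.72) and 6 for TR3 (0.05). Without A2052 the TR1 median of these genes was 0.20 with 7 of 10 positive. They include ACSL1, which activates fatty acids (0.27, 0.21 and 0.23), the muscle fatty acid binding protein FABP3 (0.32, 0.23 and 0.34) and PDK4, which shifts fuel from glucose to fat (0.55, 0.93 and -0.76). Among 5 genes of triglyceride synthesis, the reverse pathway, 4 were positive for TR1 (median 0.47), 4 for TR2 (0.84) and 3 for TR3 (0.18). LPIN1, the phosphatidate phosphatase that makes diglyceride, had 1.38, 1.79 and -0.24, ACACB, whose malonyl-CoA restrains mitochondrial fat uptake, had 0.25, 0.84 and 0.31, and AGPAT2 had 0.47, 0.38 and 0.18. Without A2052 the median of the synthesis genes was 0.15 in TR1 and 0.33 in TR3. The median CPM of LPIN1 was 21.1 in CTR, 22.3 in TR1 and 27.1 in TR2, with 445 CPM in A2052 and 264 in A2099. In TR2, 5 calves exceeded the highest CTR calf for LPIN1.

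**Figure D4:**
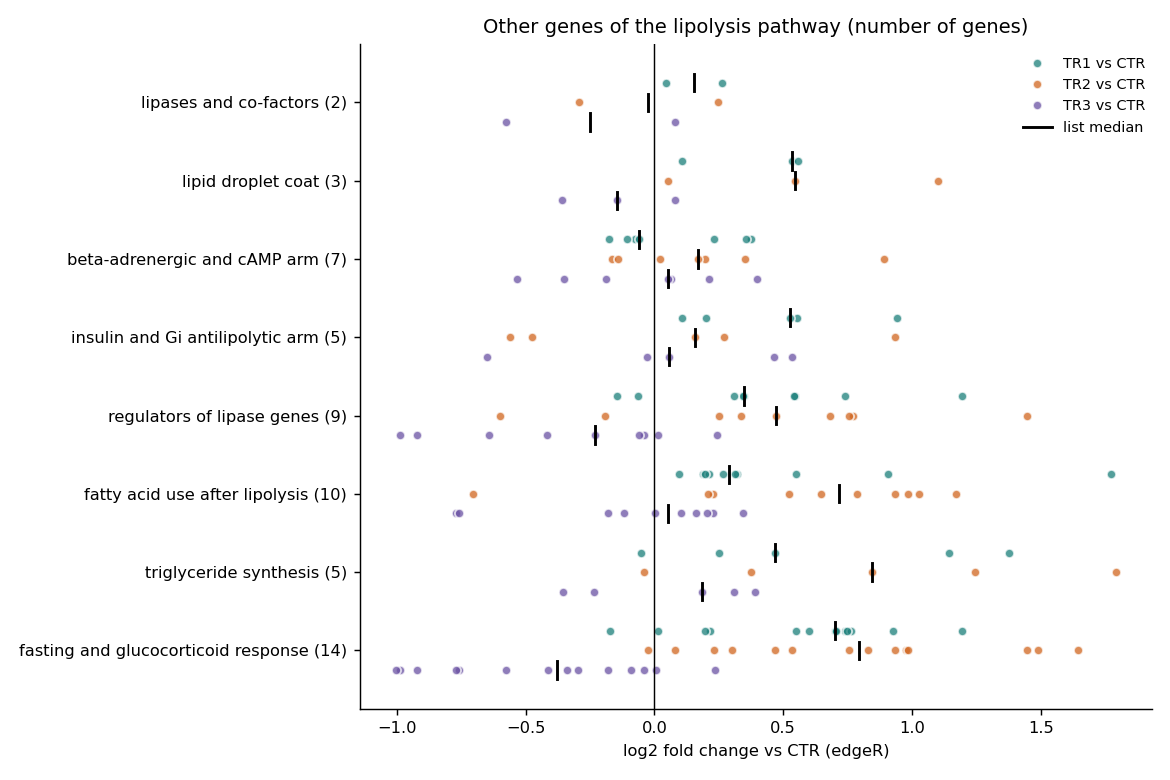
Log2 fold changes vs. CTR (edgeR) of the matched genes of 8 lists, LIPE and PNPLA2 left out, with 1 point per gene coloured by comparison, a black tick at each list's median and the number of genes in brackets. The fasting and glucocorticoid genes lie mostly right of 0 in TR1 and TR2 (medians 0.70 and 0.79) and left of it in TR3 (-0.38), whereas the beta-adrenergic genes are centred near 0.

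Fasting and glucocorticoid response genes were set beside the lipases. The lists share genes: PDK4 and ANGPTL4 also stand among the genes of fatty acid use, and CEBPD and KLF15 among the regulators. The list values are therefore not separate results. Of 14 such genes, 13 were positive for TR1 (median 0.70), 13 for TR2 (0.79) and 2 for TR3 (-0.38). An unadjusted edgeR p under 0.05 was reached by 0, 3 and 0 of them, against 2.55%, 8.34% and 1.35% of all genes. Other lists reached it in TR2 as well, with 4 of 10 genes of fatty acid use and 3 of 5 of triglyceride synthesis, all higher. Of the 9 regulators, 3 were higher and 1 lower at that p in TR2. Without A2052, the TR1 median was -0.08 with 6 of 14 positive, the TR2 median was 0.60 and the TR3 median was -0.18 with 4 of 14 positive. The 3 most abundant were PDK4, with 4223 CPM in A2052 and 2301 in A2023 against 57.2 to 1029 in CTR, TXNIP (-0.17, 0.23 and -0.58) and the glucocorticoid-induced TSC22D3 (0.22, 0.08 and 0.01). A score, the mean log2 CPM of the 14 genes, ranged from 4.60 to 5.88 among CTR calves, from 4.69 to 8.14 (TR1), from 5.19 to 7.30 (TR2) and from 4.79 to 5.51 (TR3). A2052 and the TR2 calves A2099, A2100 and A2023, the 4 calves with the highest PNPLA2, all had scores above the CTR range. The score's genes did not all go the same way in them. In A2023 and A2100, NAMPT was 619 and 289 CPM (CTR 47.8 to 121) and FKBP5 461 and 430 CPM (CTR 41.3 to 220). In the same calves, FBXO32 was 0.87 and 9.97 CPM (CTR 1.08 to 31.9) and SESN1 49.6 and 38.7 CPM (CTR 31.4 to 83.6). TR1 calf A2040 (LIPE 18.2 CPM), with a score of 5.33, and TR3 calf A2033 (PNPLA2 157 CPM), with 5.32, lay within it. Conversely, TR1 calf A2092 had a score of 6.01, above the CTR range, with LIPE at 16.7 CPM. Its PNPLA2, at 83.1 CPM, lay within the CTR range of that gene.

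Across the 38 calves the score had r = 0.84 and rho = 0.54 with PNPLA2 (permutation p = 1e-05 and 0.00063) and r = 0.72 and rho = 0.50 with LIPE (permutation p = 2e-05 and 0.0016). After adjustment over 5 relations, the largest of these p-values was 0.00267. The score's genes were matched through tables that name mostly genes the study called in these calves, and it listed both lipases too. The permutation p-values do not account for that selection. Without A2052 and A2099, r was 0.64 with PNPLA2 and 0.51 with LIPE. For the single genes of the score, r with PNPLA2 without these calves ran from 0.04 (MT2A) to 0.66 (CEBPD). Within groups, r with PNPLA2 was 0.37 (CTR), 0.91 (TR1), 0.91 (TR2) and 0.41 (TR3), and r with LIPE was -0.06, 0.93, 0.76 and 0.50. The rho values were 0.37, 0.38, 0.82 and 0.42 with PNPLA2 and -0.12, 0.63, 0.72 and 0.60 with LIPE. With the score as a further term in edgeR, the log2 fold changes vs. CTR became 0.59, 0.43 and 0.56 for LIPE and 0.21, 0.39 and 0.50 for PNPLA2 (TR1, TR2, TR3), and the trimesters lay closer together than without it. What set the level of these genes in single calves was not tested.

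**Figure D5:**
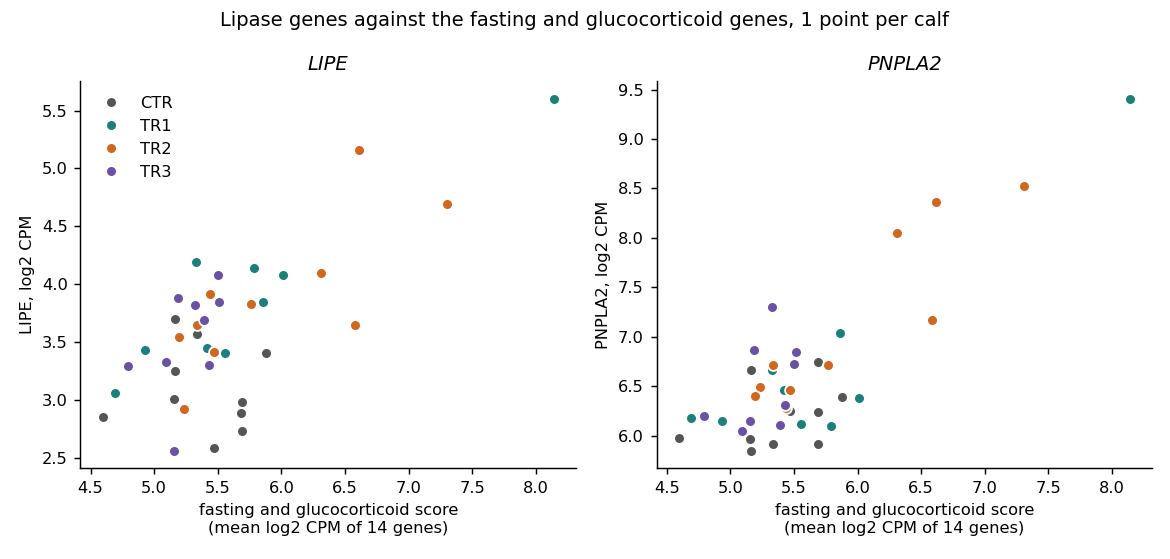
Log2 CPM of LIPE (left) and PNPLA2 (right) against the mean log2 CPM of 14 fasting and glucocorticoid response genes, with 1 point per calf coloured by group. TR1 calf A2052 (score 8.14) and TR2 calves A2099 and A2100 lie at the upper right in both panels, while TR2 calf A2090 (score 6.58) has LIPE at 12.4 CPM, below the highest CTR calf, and r over all calves is 0.72 for LIPE and 0.84 for PNPLA2.

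Markers of other cell types were set beside the lipases, because adipocytes carry far more of both enzymes than muscle fibres do. Of 12 adipocyte markers, 5 could be matched. ADIPOQ, the adipokine of mature adipocytes, was at 0 counts in 13 of 38 calves and had a median of 0.176 CPM, FABP4 a median of 1.17 CPM and PLIN1 2.63 CPM, whereas GPD1 and AGPAT2 are also used by muscle. ADIPOQ, FABP4 and PLIN1 summed to 2.75 to 12.7 CPM in CTR, 2.05 to 42.5 in TR1, 1.77 to 10.1 in TR2 and 2.48 to 6.84 in TR3. The highest sum was in TR1 calf A2040, whose PNPLA2 was 101 CPM, and A2052 had the lowest sum of TR1, at 2.05 CPM. A score over the 5 markers had r = -0.06 with LIPE and -0.23 with PNPLA2 over the 38 calves (permutation p = 0.717 and 0.162). The score averages genes that went opposite ways. With PNPLA2, r was -0.73 for GPD1, 0.57 for AGPAT2, -0.47 for PLIN1, -0.14 for ADIPOQ and 0.01 for FABP4. With LIPE, r was -0.56, 0.49, -0.29, -0.06 and 0.16 in the same order. The score therefore cannot stand for adipocytes alone, and their part in the lipase values was not tested. With this score as a term, the log2 fold changes were 0.95, 0.86 and 0.37 for LIPE and 0.78, 1.04 and 0.17 for PNPLA2 (edgeR).

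Muscle fibre genes were abundant in all calves. The 7 matched markers summed to between 63412 and 147559 CPM in 37 calves and to 35286 CPM in A2052. Their median log2 fold change was -0.20, -0.06 and 0.01 for TR1, TR2 and TR3, and -0.12 for TR1 without A2052. The 3 fibroblast markers, COL1A1, COL3A1 and PDGFRA, had -0.60, -0.43 and -0.46 in TR2, each with an unadjusted edgeR p under 0.05, and summed to 211 to 440 CPM there against 308 to 829 in CTR. The 3 leukocyte markers had medians of -0.38, -0.40 and -0.13, and the endothelial VWF had -0.01, 0.35 and 0.03. The part of these cell types in the lipase values was not tested.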

How the data were processed

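Counts were analysed for 38 LD muscle libraries (poly-A selected, strand-specific, paired-end). The authors trimmed reads, mapped them to ARS-UCD1.2 with STAR 2.7.3a and deposited raw counts per Ensembl gene; which strand column was kept is not given in the sources used here. The genes and gene lists were chosen with earlier results of these data known. Groups, sex and dam age came from the sample labels.

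edgeR 4.0.16 in R 4.3.3 was used with filterByExpr (sex and group), TMM and the quasi-likelihood F-test, with dam age (linear), sex and group in the model. Standard errors were derived from F and the log2 fold change. Benjamini-Hochberg adjusted p-values under 0.05 were called. Log2 CPM used a prior count of 2, and the ratio an added count of 0.5. Permutation tests used scipy 1.17.1. The edgeR fit was run on simulated counts as a test of its code.

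Genes were named by rule: both lipases, all matched genes of the lipase and droplet lists, the 3 with the highest mean CPM of every other list, and the 5 most and 3 least alike genes; further list genes, the fibroblast and endothelial genes among them, were named after their values were seen. Symbols were available for 2878 of 27607 identifiers. No sequence is shown, and coordinates are not given because the gene table is of another assembly. Alternatives were DESeq2 1.42.0, its size factors, library size, no filter, other covariates, a robust fit, marker scores as terms and each calf left out. Males only, medians and lists without A2052 were added after seeing the data.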

Additional observations from a re-analysis of the deposited data

Results flagged for a closer look

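Each group was checked for a calf standing apart from the rest, for log2 CPM of LIPE and PNPLA2, their log2 ratio and the fasting and adipocyte scores, 20 checks in all, and chance flags about 1 in 20. In TR1, calf A2052 stood apart with a log2 CPM of 5.60 for LIPE (group median 3.84, next calf 4.19), 9.41 for PNPLA2 (median 6.38, next calf 7.04) and a fasting and glucocorticoid score of 8.14 (median 5.55, next calf 6.01). These 3 flags concern the same library, which also had the highest TMM factor of the series, 1.35. In TR2, calf A2023 stood apart with a score of 3.64 over the 5 adipocyte markers, GPD1 and AGPAT2 included (median 2.72, next calf 2.98). No cause was tested for either calf.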

How the results depend on the processing

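Neither lipase reached an adjusted p of 0.05 in any alternative fit across genes, and vs. CTR the log2 fold changes of both stayed positive in all of them. With dam age as a factor, LIPE had 0.81, 0.69 and 0.27 in TR1, TR2 and TR3 (unadjusted edgeR p = 0.0089, 0.0256 and 0.365). PNPLA2 had 0.58, 0.80 and 0.03 (unadjusted edgeR p = 0.140, 0.0412 and 0.941). In that fit, the test of any difference for PNPLA2 gave an unadjusted edgeR p of 0.109. With only the 2 groups compared in the fit, TR3 gave 0.57 for LIPE and 0.49 for PNPLA2 (unadjusted edgeR p = 0.0133 and 0.0123). Whether TR3 had an unadjusted p under 0.05 thus depended on the fit.

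The count of genes at an adjusted p of 0.05 moved as follows. DESeq2 gave 1 gene in TR2 vs. CTR and 7 in female vs. male. Without a filter it was 2 in TR3 vs. CTR, 11 in TR3 vs. TR1, 4 in TR3 vs. TR2, 11 in female vs. male, 3 per year of dam age and 13 for any difference. Per year of dam age it was 1 with sex left out, which leaves dam age and group alone, and it was 1 in TR1 vs. CTR with the adipocyte score. With each calf left out it ranged from 0 to 1 in TR1 vs. CTR, TR2 vs. CTR and per year of dam age, from 0 to 2 for the mean of the Se-yeast groups and from 4 to 8 in female vs. male. The cause was not tested.

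Signs turned for values that had not passed the test. PNPLA2 in female vs. male was -0.065 with dam age as a factor, -0.0068 with the adipocyte score and -0.066 with the fasting score. With the fasting score, TR3 vs. TR1 was 0.29 for PNPLA2, TR3 vs. TR2 was 0.13 for LIPE and 0.12 for PNPLA2, and the value per year of dam age was 0.061 for LIPE and 0.056 for PNPLA2. With each calf left out, LIPE ranged from -0.21 to 0.26 in TR2 vs. TR1, from -0.19 to 0.20 in female vs. male and from -0.093 to 0.039 per year of dam age, and PNPLA2 from -0.81 to 0.40 in TR3 vs. TR1, from -0.53 to 0.24 in female vs. male and from -0.19 to 0.039 per year of dam age. The correlation between the lipases ranged from 0.71 to 0.83. No paired analysis was possible because the labels give no replicate numbers or blocks shared between groups.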
